A study of Mus musculus with 8 samples.

Results

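The 9 genes described here encode the enzymes that make serine from glycolysis and pass its carbon to folate: Phgdh, Psat1, Psph, Shmt1, Shmt2, Mthfd1, Mthfd2, Mthfd1l and Tyms. They are the rows of the deposited count and RPKM tables that carry these symbols. The rule names them for their place in the pathway and uses no measured value, but the list was drawn up with earlier results of these data known. All 9 were found among 25078 gene rows and all 9 were above the filter on low counts. RNA was sequenced from donor T cells sorted from the spleen at day 6 after hematopoietic cell transplantation (HCT). Lethally irradiated WT BALB/c recipients had been given T cells of WT or STAT3-deficient C57BL/6 donors together with T cell-depleted bone marrow of WT C57BL/6 donors, so all groups share the irradiated host, the marrow graft and the mismatch of major histocompatibility antigens. CD4 and CD8 T cells of either genotype (WT, and STAT3ko in the labels, written STAT3KO here) made up 4 groups of 2 libraries, and each library pooled cells of several recipients. STAT3-deficient donors carried Stat3 fl/fl and a Cre transgene driven by Cd4 regulatory sequences, which deletes the floxed allele in the T cell lineage, CD8 T cells included. The ages of the animals are not given in the sources used here.

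Serine synthesis starts from a glycolytic intermediate. PHGDH oxidizes it, PSAT1 transfers an amino group to it and PSPH removes the phosphate. Serine hydroxymethyltransferase, SHMT2 in mitochondria and SHMT1 in the cytosol and nucleus, then splits serine into glycine and a methylene group carried by tetrahydrofolate. In mitochondria MTHFD2 oxidizes the carried carbon and MTHFD1L releases it as formate. In the cytosol MTHFD1 takes formate up again for purine synthesis and for methylene-tetrahydrofolate, from which TYMS makes thymidylate for DNA. Activated T cells are known to induce this pathway as they enter the cell cycle.

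The libraries held 20171396 to 23282757 counts. Levels of 1 gene between libraries are given as CPM, here counts brought to equal library size with TMM factors, and levels between genes as the RPKM that were deposited, which are divided by exon length. Stat3 itself was at 428 to 436 CPM in the 4 libraries of WT and at 119.7 to 143 in the 4 libraries of STAT3KO donors, so the genotype labels held in every library. Cd4 was at 1361 to 1602 CPM in the CD4 libraries and at 1.04 to 8.16 in the CD8 libraries, and Cd8a at 819 to 984 CPM in the CD8 libraries and at 1.70 to 16 in the CD4 libraries. Summed markers of other cells, as CPM of the column total, were low beside those of T cells (5689 to 7303). Macrophage markers were at 21.7 to 55.3 in the replicate 1 libraries and at 71.8 to 140 in the replicate 2 libraries. Of these, Cd68 (8.70 to 50.9 over all libraries) overlapped between the numbers. Each of the others was higher in every replicate 2 library, as was Csf1r, at 0.558 to 2.51 in replicate 1 and 11.8 to 18.7 in replicate 2. The sum of 6 hepatocyte markers was at 1.29 to 3.05 and 12.2 to 21.9. Nearly all of it was Trf (1.29 to 21.7), and Alb, Apoa1, Ttr, Serpina1a and Fgb were each at 0 to 0.13. Acinar markers of the pancreas reached 89.8 in the second STAT3KO CD8 library against 5.59 to 15.6 in the other 7. Cela1 held 10.5 and 14.8 of the sum in WT CD4 libraries and 4.23 and 7.33 in STAT3KO CD4 libraries. Ctrb1 was at 0.099 and 0.146 in WT CD4 against 0.639 and 1.91 in STAT3KO CD4, and at 31.0 in the second STAT3KO CD8 library. B cell markers were at 17.8 and 11.5 in WT CD4 libraries, at 2.56 and 3.28 in those of STAT3KO donors and at 12.5 to 13.3 in the CD8 libraries. Erythroid markers stayed at 0.568 to 6.72, with 4 of 8 at 0 in all libraries, and neutrophil and progenitor markers at 3.24 to 21.8. None of these lists shares a gene with the members, and their part in the results was not tested.

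The promoters of 4 members are shown because the results turn on them. Tyms and Shmt1 were called in STAT3KO CD4 T cells in opposite directions. Phgdh had STAT3KO and WT libraries in opposite orders in the 2 cell types, without overlap in either. Neither of its fold changes was called by edgeR without the replicate block described below, and with the block only that in CD4 was. Shmt2 was the member with the letters of a STAT site. Each run is the 250 bases before the RefSeq start site, read 5′ to 3′ toward the gene (RefSeq, GRCm38.p6). All 4 genes are on the minus strand. The windows are chr5:30073626-30073875 for Tyms, chr11:60811266-60811515 for Shmt1, chr3:98339970-98340219 for Phgdh and chr10:127522445-127522694 for Shmt2. Capitals mark the E-box CACGTG in Tyms, the CCAAT box in Shmt1 (as ATTGG on this strand) and in Phgdh, and the STAT letters TTCNNNGAA in Shmt2.
Tyms: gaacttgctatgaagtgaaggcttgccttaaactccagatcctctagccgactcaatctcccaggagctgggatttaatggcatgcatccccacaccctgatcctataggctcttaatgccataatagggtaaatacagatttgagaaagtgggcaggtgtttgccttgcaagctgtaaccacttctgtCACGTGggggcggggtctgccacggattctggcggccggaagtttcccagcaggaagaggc
Shmt1: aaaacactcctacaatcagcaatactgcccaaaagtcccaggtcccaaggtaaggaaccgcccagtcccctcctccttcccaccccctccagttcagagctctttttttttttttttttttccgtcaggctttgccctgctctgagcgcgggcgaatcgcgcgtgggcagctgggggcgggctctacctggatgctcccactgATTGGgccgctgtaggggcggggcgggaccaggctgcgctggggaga
Phgdh: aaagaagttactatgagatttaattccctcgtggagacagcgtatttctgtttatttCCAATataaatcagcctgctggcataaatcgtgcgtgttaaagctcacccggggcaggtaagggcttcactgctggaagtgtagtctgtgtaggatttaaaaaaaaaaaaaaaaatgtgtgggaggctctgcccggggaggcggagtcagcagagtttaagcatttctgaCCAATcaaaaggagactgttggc
Shmt2: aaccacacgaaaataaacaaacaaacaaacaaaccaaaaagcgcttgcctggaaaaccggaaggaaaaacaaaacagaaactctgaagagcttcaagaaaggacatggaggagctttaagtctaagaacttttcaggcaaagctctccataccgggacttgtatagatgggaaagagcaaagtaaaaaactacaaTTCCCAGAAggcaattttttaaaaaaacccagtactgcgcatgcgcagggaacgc
All 9 members had such a window. On either strand the CCAAT box was present in 6 of them (Phgdh, Psat1, Psph, Mthfd2, Shmt1 and Mthfd1), and in 33.8% of 32851 windows of the same length over all genes. The E-box was in Tyms alone of the 9 and in 6.02% of all windows, and the STAT letters in Shmt2 alone, 55 to 47 bases before the start site, and in 7.02% of all windows. The composite site of ATF4 and C/EBP (TGATGNAA, in 3.45% of all windows), the E2F letters (TTTCCCGC, TTTGGCGC or TTTCGCGC, 1.53%) and the cAMP response element (TGACGTCA, 1.55%) were found in no member window. No 2 of the motifs overlapped in a member. A match is a run of letters and no binding was measured.

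Per exon length, Psat1 had the highest mean of the members in every group, and Phgdh, the first enzyme of the pathway, was among the 3 lowest. In WT CD4 T cells mean RPKM (± SD, n = 2) fell in the order Psat1 43.9 ± 1.83, Mthfd2 38.9 ± 6.28, Shmt2 22.2 ± 3.89, Mthfd1l 21.6 ± 0.210, Psph 19.7 ± 4.11, Mthfd1 18.1 ± 1.5, Shmt1 8.40 ± 0.626, Tyms 7.58 ± 0.219 and Phgdh 6.77 ± 0.348. Shmt2, Mthfd1l, Psph and Mthfd1 overlapped one another or their neighbours in this order, as did Psat1 and Mthfd2. In WT CD8 T cells Psat1 stood apart at 65.7 ± 2.91 RPKM. Mthfd1l, Shmt2 and Mthfd2 followed at 42.3 ± 0.523, 41.0 ± 5.52 and 38.0 ± 1.42, Psph and Mthfd1 at 28.8 ± 1.89 and 28.5 ± 3.52, and Tyms, Shmt1 and Phgdh at 16.5 ± 2.51, 16 ± 2.07 and 15.7 ± 1.65, and neighbours within each of these 3 sets overlapped. The lowest count behind any member value was 235, for Shmt1, whose counting error is 6.52%.

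**Figure D1:**
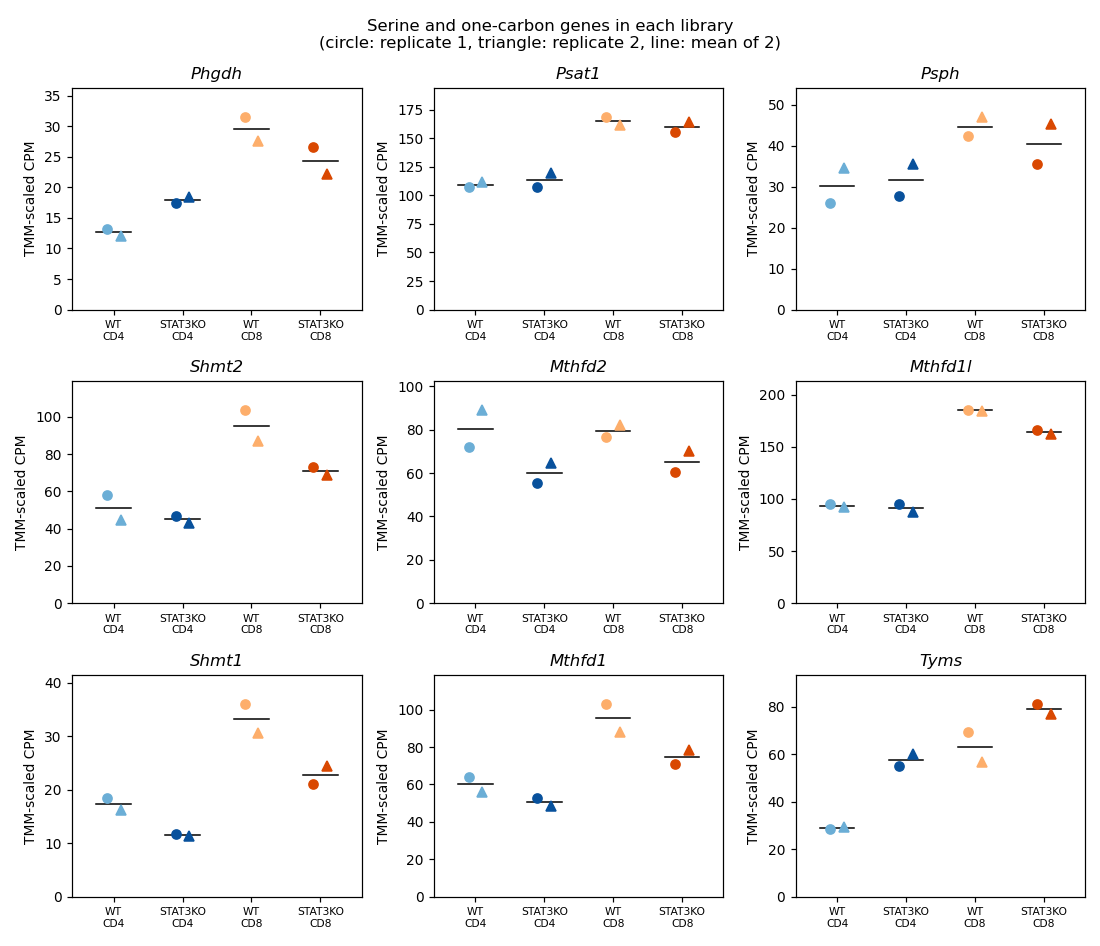
TMM-scaled CPM of the 9 members in each of the 8 libraries, with a panel for each gene, the 4 groups on the x axis, circles for replicate 1, triangles for replicate 2 and a line at the mean. Tyms is at 28.5 and 29.2 in WT CD4 and at 54.8 and 60.2 in STAT3KO CD4, while 8 of the 9 genes are higher in both WT CD8 libraries than in both WT CD4 libraries, the exception being Mthfd2.

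The first question was what STAT3 deficiency changed in CD4 T cells. As compared with WT CD4 T cells, STAT3KO CD4 T cells had 1.99 times as much Tyms mRNA and 0.665 times as much Shmt1, and the other 7 members did not pass the test (edgeR quasi-likelihood test with Benjamini-Hochberg adjusted p under 0.05 over 12428 genes). So 1 of 9 members was called higher, beside 6.54% of all genes tested, and 1 of 9 lower, beside 5.08%. With the replicate number as a block, which removes what libraries of 1 number share, 2 members were called higher and 2 lower, beside 16.5% and 13.7% of all genes. Leaving out any 1 of the 4 libraries left 1 member called, Tyms. Without overlap between the groups were 5 of 9 members, beside 53.5% of all genes. The median log2 fold change of the members was -0.04, and 0.02 over all genes.

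In CD8 T cells no member passed the test, beside 2.07% of all genes called in either direction. Of the 9, 4 had an unadjusted p under 0.05 in edgeR, beside 19.3% of all genes. DESeq2 called 1 member, Shmt1 (adjusted p = 0.0432), and 885 genes in all. With the replicate block 4 members were called lower (Shmt2, Mthfd2, Shmt1 and Mthfd1) and none higher, beside 7.89% of all genes called lower. Fold changes were below 0 for 8 of 9 members, with a median of -0.28 against -0.01 over all genes, and 7 of 9 members had no overlap between the groups, beside 49.7% of all genes. The difference between the 2 cell types in the effect of STAT3 deficiency was called by edgeR for no member, and for 0% of all genes. At an unadjusted p under 0.05 there were 2 members and 982 genes, and DESeq2 called no member and 190 genes. In the fit with the block it was called for Phgdh and Tyms, both with a lower fold change in CD8, beside 2.08% of all genes called in that direction.

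**Figure D2:**
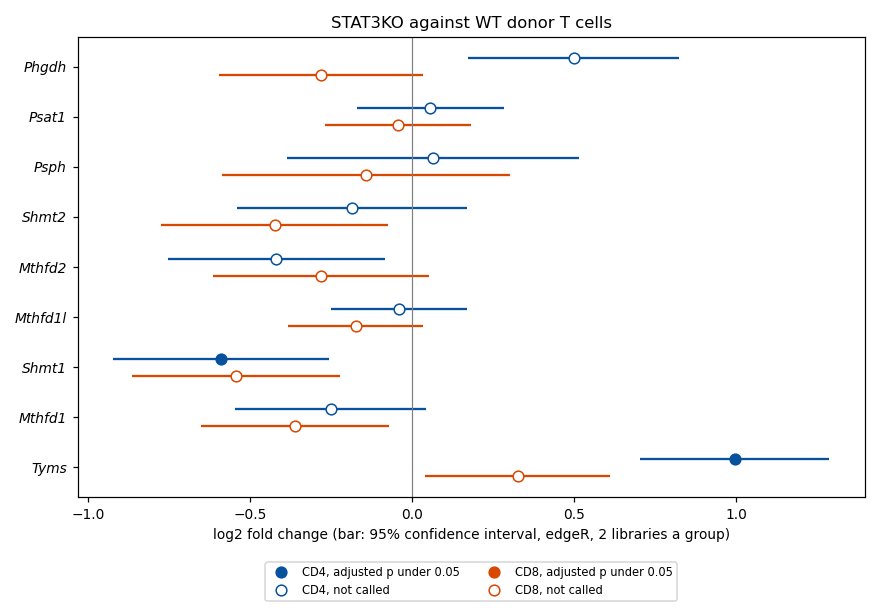
Log2 fold change of STAT3KO against WT for each member in CD4 (blue) and CD8 (orange) T cells, with 95% confidence intervals from the edgeR fit and filled circles for adjusted p under 0.05. Tyms at 1.00 and Shmt1 at -0.59 in CD4 T cells are the filled circles, and Phgdh lies at 0.50 in CD4 and at -0.28 in CD8 T cells.

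Between the cell types the members differed more. In WT donor cells 7 of 9 members were called higher in CD8 than in CD4 T cells and none lower. Of all genes 12.2% were called higher. With the replicate block 8 members were called higher, beside 20.6% of all genes. In STAT3KO cells 6 of 9 were called higher and none lower, beside 5.84% of all genes, and 8 were called higher with the block, beside 14.4%. The STAT3KO calls rested on all 4 libraries: Mthfd1l and Shmt1 alone were still called without the first STAT3KO CD4, the first STAT3KO CD8 or the second STAT3KO CD8 library (2 members each), and Mthfd1l alone without the second STAT3KO CD4 library (1 member). The members' median log2 fold change was 0.90 in WT and 0.49 in STAT3KO cells, with 0.00 over all genes in both. Without overlap were 8 of 9 members in WT cells (59.3% of all genes) and 7 of 9 in STAT3KO cells (58.3%). These comparisons share their libraries with those of STAT3KO against WT, so the 4 sets of values are not independent. In bulk libraries a change in the make-up of the sorted cells and a change in RNA per cell cannot be told apart.

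**Figure D3:**
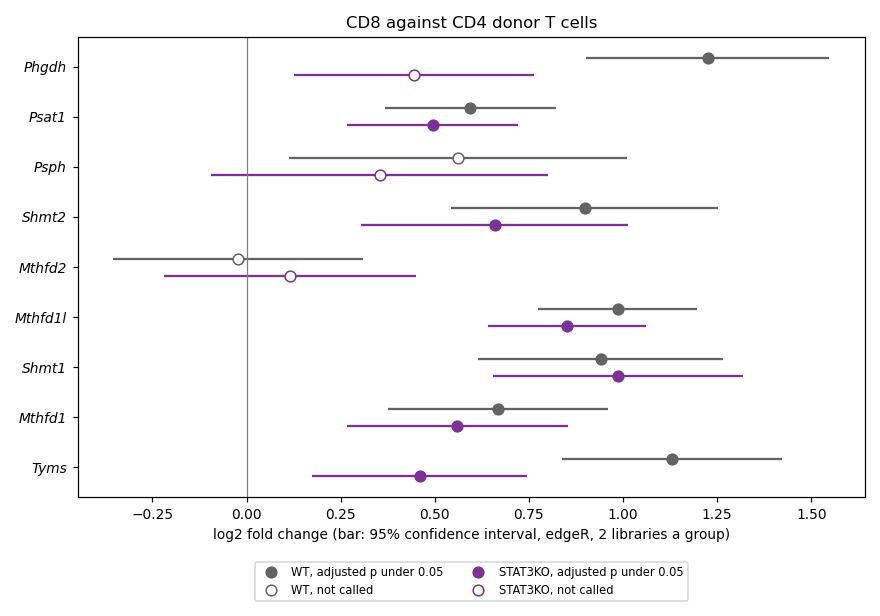
Log2 fold change of CD8 against CD4 T cells for each member in WT (grey) and STAT3KO (purple) donor cells, with 95% confidence intervals and filled circles for adjusted p under 0.05. Mthfd2 is near 0 in both (-0.02 and 0.12), and Phgdh and Tyms have lower fold changes in STAT3KO (0.44 and 0.46) than in WT cells (1.22 and 1.13).

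Among the genes of serine synthesis, Phgdh encodes the enzyme that commits glycolytic carbon to serine (chr3, 98313171 to 98339969, minus strand). It was at 13.2 and 12.1 CPM in CD4 T cells of WT and at 17.4 and 18.4 in those of STAT3KO donors, and at 31.6 and 27.6 (WT) against 26.5 and 22.2 (STAT3KO) in CD8 T cells. Both STAT3KO CD4 libraries lay above both WT CD4 libraries, and both STAT3KO CD8 libraries lay below both WT CD8 libraries. The log2 fold change in CD4 was 0.50 (SE 0.14, adjusted p = 0.0599 by edgeR, and 0.0111 with the replicate block), and within the replicate numbers it was 0.40 and 0.60. In CD8 it was -0.28 (SE 0.14, adjusted p = 0.310 by edgeR), and -0.25 and -0.32 within the numbers. The difference between the cell types, -0.78 (SE 0.19), had an adjusted p of 0.291 in edgeR and of 0.0321 with the block. Among WT cells Phgdh was 2.34-fold higher in CD8 (log2 1.22, SE 0.14, adjusted p = 0.000827 by edgeR). In STAT3KO cells the same log2 fold change was 0.44 (SE 0.14, adjusted p = 0.0761 by edgeR, and 0.0172 with the block). Phgdh transcripts match 16 other annotated genes, 13 of them pseudogenes, at 95% identity or more over at least 100 bases, and the 3 of these with a row of their own held 0 to 2 counts. How reads that fit several copies were counted is not given in the sources used here.

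Psat1, which encodes the aminotransferase of the second step (chr19, 15905123 to 15925059, minus strand), was at 107 and 112 CPM in CD4 T cells of WT and at 107.6 and 119.7 in those of STAT3KO donors, and at 169 and 161 (WT) against 156 and 165 (STAT3KO) in CD8 T cells. The genotypes overlapped in both cell types. The 95% confidence interval of the log2 fold change was -0.17 to 0.28 in CD4 and -0.27 to 0.18 in CD8, so changes of the size seen for Tyms lie outside it. The cell types did not overlap, and Psat1 was higher in CD8 by a log2 fold change of 0.59 in WT (SE 0.10, adjusted p = 0.00408 by edgeR) and 0.49 in STAT3KO cells (SE 0.10, adjusted p = 0.0169 by edgeR).

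Psph, which encodes the phosphatase that yields serine (chr5, 129765558 to 129787253, minus strand), was at 26.0 and 34.5 CPM in CD4 T cells of WT and at 27.8 and 35.6 in those of STAT3KO donors, and at 42.3 and 47.1 (WT) against 35.5 and 45.4 (STAT3KO) in CD8 T cells. Replicate 2 was the higher library in all 4 groups, and the genotypes overlapped in both cell types. Its exons share 452 bases, 10.4% of their length in GENCODE, with Cct6a on the opposite strand, and whether strand was used in counting is not given in the sources used here. CD8 exceeded CD4 by a log2 fold change of 0.56 in WT (SE 0.19, adjusted p = 0.0731 by edgeR) and 0.35 in STAT3KO cells (SE 0.19, adjusted p = 0.290 by edgeR). With the block, which takes out the step between the replicate numbers, the adjusted p was 0.000960 and 0.0211.

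Among the mitochondrial enzymes, Shmt2 encodes the hydroxymethyltransferase whose promoter holds the STAT letters shown above (chr10, 127517123 to 127522444, minus strand). It was at 57.9 and 44.4 CPM in CD4 T cells of WT and at 47.0 and 43.0 in those of STAT3KO donors, and at 104 and 86.9 (WT) against 73.1 and 68.9 (STAT3KO) in CD8 T cells. The genotypes overlapped in CD4 and did not in CD8 T cells, where both STAT3KO libraries were lower. The log2 fold change was -0.18 in CD4 (SE 0.15, adjusted p = 0.499 by edgeR) and -0.42 in CD8 (SE 0.15, adjusted p = 0.182 by edgeR, and 0.0123 with the block), and the difference of -0.24 (SE 0.21) was not called with or without the block. Among WT cells Shmt2 was 1.86-fold higher in CD8 (log2 0.90, SE 0.15, adjusted p = 0.00475 by edgeR). In STAT3KO cells it was 1.58-fold higher (log2 0.66, SE 0.15, adjusted p = 0.0306 by edgeR).

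Mthfd2, which encodes the dehydrogenase of the mitochondrial branch (chr6, 83305704 to 83317604, minus strand), was the member that did not follow the difference between the cell types. It was at 71.9 and 89.0 CPM in CD4 T cells of WT and at 55.6 and 64.9 in those of STAT3KO donors, and at 76.6 and 82.0 (WT) against 60.4 and 70.1 (STAT3KO) in CD8 T cells. STAT3KO libraries were below WT libraries in both cell types without overlap. The log2 fold change was -0.42 in CD4 (SE 0.14, adjusted p = 0.107 by edgeR, and 0.00409 with the block) and -0.28 in CD8 T cells (SE 0.14, adjusted p = 0.341 by edgeR, and 0.0383 with the block). Within the replicate numbers it was -0.37 and -0.46 in CD4, and -0.34 and -0.23 in CD8. CD8 and CD4 T cells overlapped, with a 95% interval of the log2 fold change of -0.35 to 0.31 in WT and -0.22 to 0.45 in STAT3KO cells.

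Mthfd1l, which encodes the mitochondrial enzyme that releases formate (chr10, 3973075 to 4167081, plus strand), was at 94.8 and 92.0 CPM in CD4 T cells of WT and at 94.7 and 87.0 in those of STAT3KO donors, and at 185 and 185 (WT) against 166 and 162 (STAT3KO) in CD8 T cells. The CD4 groups overlapped, and in CD8 both STAT3KO libraries were lower by a log2 fold change of -0.17 (SE 0.09, adjusted p = 0.344 by edgeR), which was not called with the block either (0.126). It was 1.98-fold higher in CD8 than in CD4 T cells in WT (log2 0.99, SE 0.09, adjusted p = 0.000349 by edgeR). In STAT3KO cells it was 1.80-fold higher (log2 0.85, SE 0.09, adjusted p = 0.00183 by edgeR).

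Among the cytosolic and nuclear enzymes, Shmt1 (chr11, 60788897 to 60811265, minus strand) was at 18.4 and 16.3 CPM in CD4 T cells of WT and at 11.8 and 11.3 in those of STAT3KO donors, and at 36.1 and 30.5 (WT) against 21.2 and 24.5 (STAT3KO) in CD8 T cells. STAT3KO libraries lay below WT libraries in both cell types without overlap. The log2 fold change was -0.59 in CD4 (SE 0.14, adjusted p = 0.0376 by edgeR) and -0.54 in CD8 T cells (SE 0.14, adjusted p = 0.0909 by edgeR, and 0.0159 with the block). The difference between the 2 was 0.04 (95% interval -0.42 to 0.51). The call in CD4 was lost when any 1 of the 4 CD4 libraries was left out (adjusted p 0.0803 to 0.187) and when the CD4 libraries were fitted alone (0.0708), with log2 fold changes of -0.68 to -0.52. By DESeq2 the fold change in CD8 T cells was called (adjusted p = 0.0432). Shmt1 shares 184 exon bases, 4.74% of its GENCODE exons, with Smcr8 on the opposite strand. It was higher in CD8 than in CD4 T cells by a log2 fold change of 0.94 in WT (SE 0.14, adjusted p = 0.00263 by edgeR) and 0.99 in STAT3KO cells (SE 0.14, adjusted p = 0.00537 by edgeR).

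Mthfd1, which encodes the cytosolic enzyme that activates formate (chr12, 76255232 to 76319820, plus strand), was at 64.2 and 56.1 CPM in CD4 T cells of WT and at 52.6 and 48.5 in those of STAT3KO donors, and at 103 and 88.0 (WT) against 70.7 and 78.3 (STAT3KO) in CD8 T cells. Here too STAT3KO libraries lay below WT libraries in both cell types, without overlap. Fold changes on the log2 scale were -0.25 in CD4 (SE 0.13, adjusted p = 0.249 by edgeR) and -0.36 in CD8 T cells (SE 0.13, adjusted p = 0.173 by edgeR, and 0.0342 with the block). CD8 T cells were higher by a log2 fold change of 0.67 in WT (SE 0.13, adjusted p = 0.00753 by edgeR, but 0.0531 without the second WT CD4 and 0.0604 without the first WT CD8 library) and 0.56 in STAT3KO cells (SE 0.13, adjusted p = 0.0282 by edgeR).

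Tyms, which encodes thymidylate synthase (chr5, 30058200 to 30073625, minus strand), had the highest fold change of the members with STAT3 deficiency in both cell types. It was at 28.5 and 29.2 CPM in CD4 T cells of WT and at 54.8 and 60.2 in those of STAT3KO donors, and at 69.5 and 56.8 (WT) against 81.2 and 77.1 (STAT3KO) in CD8 T cells. Both STAT3KO libraries lay above both WT libraries in each cell type, and the 2 WT CD4 libraries were the lowest of all 8. The rise in CD4 T cells was 1.00 on the log2 scale (SE 0.13, adjusted p = 0.00361 by edgeR), and 0.94 and 1.04 within the replicate numbers. In CD8 T cells the log2 fold change was 0.33 (SE 0.12, adjusted p = 0.203 by edgeR, and 0.0541 with the block). The difference of -0.67 (SE 0.17) had an adjusted p of 0.311 in edgeR and of 0.0421 with the block. CD8 exceeded CD4 T cells 2.19-fold in WT (log2 1.13, SE 0.13, adjusted p = 0.000742 by edgeR) and 1.38-fold in STAT3KO cells (log2 0.46, SE 0.12, adjusted p = 0.0488 by edgeR). Tyms transcripts match 32 other annotated genes, 2 of them pseudogenes, at 95% identity or more over at least 100 bases. The 32 include genes such as Map3k2 and Wdr59, so they are not a count of copies of Tyms. Of the 32, 21 have a row of their own. Here too the treatment of reads that fit several genes is not given in the sources used here. The longest match, 677 bases at 95.6%, is to the processed pseudogene Tyms-ps, named here after its values were seen. It held 15.8% to 18.9% as many counts as Tyms in every library, and its own log2 fold change in CD4 T cells was 0.96 (adjusted p = 0.00897 by edgeR).

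Markers of dividing cells moved with Tyms. Their summed level over 12 genes was at 2288 and 1794 CPM in CD4 T cells of WT and at 3893 and 3751 in those of STAT3KO donors, and at 5786 and 4443 (WT) against 6310 and 6117 (STAT3KO) in CD8 T cells. In CD4 T cells 9 of the 12 were called higher with STAT3 deficiency, beside 6.54% of all genes, and none lower (median log2 fold change 0.89). With the block 12 were called higher, beside 16.5%. The 9 were led by Ccna2, cyclin A2, at 1.33 (SE 0.17, adjusted p = 0.00364 by edgeR). Ccnb1, cyclin B1, rose by 1.19 (SE 0.25, adjusted p = 0.0229 by edgeR). The called genes with the smallest rise were Pcna, the sliding clamp of DNA replication, at 0.56 and Mcm3, a subunit of the replicative helicase, at 0.63. In CD8 T cells none of the 12 was called (median 0.20), and 4 were called higher with the block. All 12 were called higher in WT CD8 than in WT CD4 T cells, with a median of 1.38. In STAT3KO cells 7 were called higher, or 12 with the block, with a median of 0.71. Their part in the members' values was not tested. The shares of all genes called that are printed with the members apply to this list and to those that follow.

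Around thymidylate, 3 of 10 enzymes of deoxynucleotide synthesis were called higher in CD4 T cells and none lower (median 0.15, 0.02 over all genes). With the block 4 were called higher and 2 lower. Rrm2, the small subunit of ribonucleotide reductase, was at 57.9 and 43.6 CPM in WT CD4 and 111 and 108 in STAT3KO CD4 T cells, a log2 rise of 1.11 (SE 0.16, adjusted p = 0.00593 by edgeR). Tk1, thymidine kinase, rose by 0.94 (SE 0.13, adjusted p = 0.00496 by edgeR), from 18.5 and 15.0 to 31.4 and 33.0 CPM. The third was Rrm1, the large subunit, at 0.92 (SE 0.11). In CD8 T cells 1 of 10 was called higher, Rrm2b, the p53-inducible small subunit, at 0.72 (SE 0.14, adjusted p = 0.0456 by edgeR). With the block 2 of the 10 were called higher and 1 lower. Between the cell types 6 of 10 were called higher in CD8 in each genotype. Tk1 led at 1.72 in WT and Rrm2 at 0.86 in STAT3KO cells, and the smallest called rise was that of Dtymk, thymidylate kinase, at 0.56 and 0.39. With the block 2 were also called lower in WT and 1 in STAT3KO cells.

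Among the other genes of the folate cycle and folate transport, 10 of 15 were tested (median log2 fold change -0.02 with STAT3 deficiency in CD4 T cells, 0.00 in CD8), and calls over the list are not counted here. Slc19a1, the reduced folate carrier, was at 18.0 and 17.6 CPM in CD4 T cells of WT against 10.6 and 10.5 in those of STAT3KO donors, and at 18.8 and 19.5 (WT) against 12.2 and 11.9 (STAT3KO) in CD8 T cells. STAT3KO libraries lay below WT libraries in both cell types without overlap. It fell by 0.75 on the log2 scale in CD4 (SE 0.12, adjusted p = 0.00737 by edgeR) and by 0.67 in CD8 T cells (SE 0.12, adjusted p = 0.0338 by edgeR). When any 1 of the 4 CD8 libraries was left out, or the CD8 libraries were fitted alone, 0 genes of the lists around the members were called in CD8 T cells, so the calls of Slc19a1 and Rrm2b there were lost.

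The glycine cleavage system breaks down glycine in mitochondria and also loads tetrahydrofolate. Of 3 tested genes 1 was called lower in CD4 T cells, Gcsh, the lipoyl-carrying protein. Gcsh was at 13.3 and 12.5 CPM in WT and 7.75 and 8.27 in STAT3KO cells (log2 -0.68, SE 0.14, adjusted p = 0.0203 by edgeR). In CD8 T cells none was called, and the value of Gcsh was -0.62 (SE 0.14, adjusted p = 0.0662 by edgeR, and 0.0102 with the block). Gldc, the decarboxylase, was the gene called between cell types, at 17.1 and 26.5 CPM in WT CD4 and 64.4 and 84.0 in WT CD8 (log2 1.77, SE 0.25, adjusted p = 0.00221 by edgeR), and at 1.46 in STAT3KO cells (SE 0.26, adjusted p = 0.0110 by edgeR). With the block 2 of the 3 were called lower in CD4, 2 lower and 1 higher in CD8, and 2 higher in CD8 than in CD4 T cells of STAT3KO donors.

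None of the 13 genes of purine synthesis was called with STAT3 deficiency (medians 0.04 in CD4 and -0.16 in CD8), and with the block 1 was called higher and 1 lower in CD4 and 1 higher and 2 lower in CD8 T cells. Between cell types 4 of 13 were called higher in WT CD8 and none lower (median 0.43, and 10 called with the block). Impdh1 led at 0.75, and Prps1 was lowest of the called at 0.49. In STAT3KO cells the called gene was Gart at 0.55 (median 0.39, and 6 called with the block). Of 7 tested genes of the methionine cycle and transsulfuration none was called with STAT3 deficiency (medians -0.04 and 0.01), and Mat2a was lower in WT CD8 than in WT CD4 T cells at -0.47 (SE 0.12, adjusted p = 0.0232 by edgeR). With the block 1 of the 7 was called lower in CD4 T cells with STAT3 deficiency. Against CD4 T cells 2 were called higher and 2 lower in WT CD8, and 1 higher and 1 lower in STAT3KO CD8 T cells. None of 8 tested serine and glycine transporters was called in any of these 4 comparisons without the block, with medians of -0.08 in CD4 and -0.06 in CD8 for STAT3 deficiency. With the block 1 was called higher and 2 lower in CD4, none in CD8, 2 lower in CD8 than in CD4 T cells of WT donors and 1 higher in those of STAT3KO donors. Among 8 tested genes that use serine or glycine, those of serine palmitoyltransferase split in CD4 T cells, where Sptlc1 fell by 0.61 (SE 0.12, adjusted p = 0.0205 by edgeR) and Sptlc2 rose by 0.46 (SE 0.11, adjusted p = 0.0351 by edgeR). None was called in CD8 T cells. With the block 2 were called higher and 1 lower in CD4 T cells, and 1 was called lower among CD8 T cells. Sars2 was higher (0.56) and Sptlc1 lower (-0.75) in CD8 than in CD4 T cells of WT donors, among 2 called higher and 1 lower, and none was called in STAT3KO cells. With the block 3 were called higher and 1 lower in WT cells, and 2 higher and 1 lower in STAT3KO cells.

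**Figure D4:**
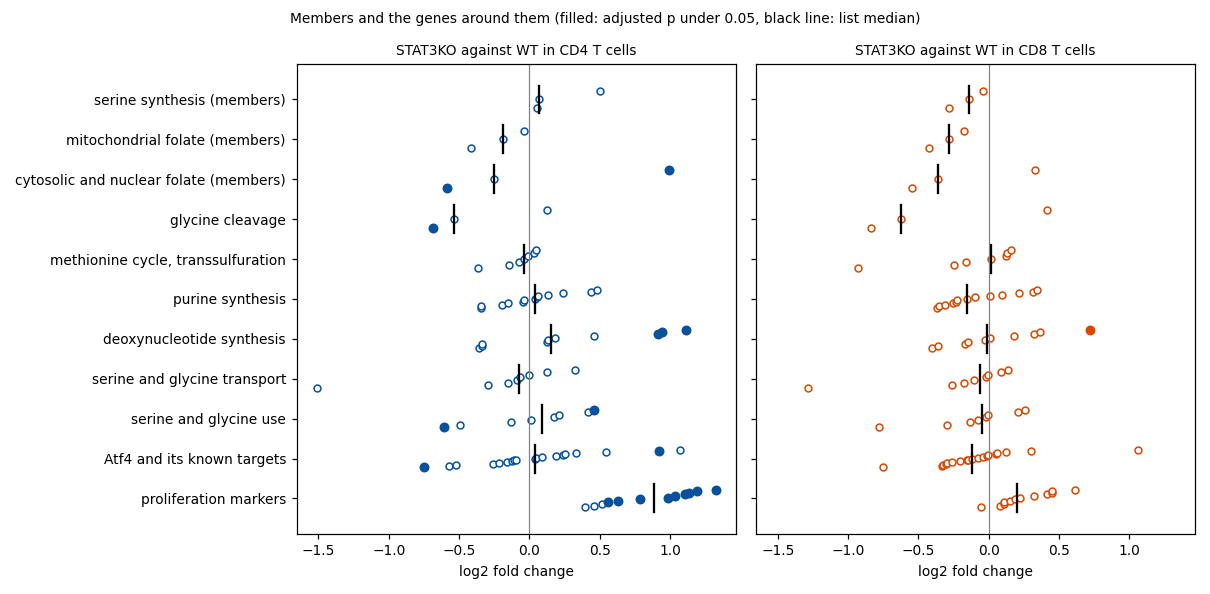
Log2 fold change of STAT3KO against WT for each tested gene of the members' groups and of the lists around them other than folate cycle and transport, in CD4 (left) and CD8 T cells (right), with filled circles for adjusted p under 0.05 and a black line at each list's median. In CD4 T cells the proliferation markers (median 0.89) and 3 deoxynucleotide genes lie to the right with Tyms, and in CD8 T cells the filled circle is Rrm2b (0.72).

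MYC and ATF4 are known to drive genes of this pathway in other settings. Myc was at 167 and 65.3 CPM in CD4 T cells of WT and at 96.0 and 42.4 in those of STAT3KO donors, and at 139 and 75.8 (WT) against 76.7 and 48.7 (STAT3KO) in CD8 T cells. Replicate 1 was the higher library in every group, and the genotypes overlapped in both cell types. Myc had a log2 fold change of -0.75 in CD4 (SE 0.54, adjusted p = 0.427 by edgeR, and 0.00369 with the block) and -0.77 in CD8 T cells (SE 0.54, adjusted p = 0.499 by edgeR, and 0.00655 with the block). Atf4 was at 276 to 379 CPM over the 8 libraries, with a log2 fold change of -0.12 in both cell types (SE 0.14, adjusted p = 0.633 by edgeR and 0.703). Of 19 tested genes of a list of Atf4 and its known targets, members left aside, 1 was called higher and 1 lower in CD4 T cells (median 0.04). The shares over all genes were 6.54% and 5.08%. In CD8 T cells none of the 19 was called (median -0.12), beside 2.07% of all genes. With the block 3 were called higher and 2 lower in CD4 T cells, beside 16.5% and 13.7% of all genes. In CD8 T cells 1 was called higher and 2 lower, beside 10.3% and 7.89%. Asns, asparagine synthetase, fell by 0.75 in CD4 T cells (SE 0.17, adjusted p = 0.0277 by edgeR), and Pck2, the mitochondrial phosphoenolpyruvate carboxykinase, rose by 0.92 (SE 0.22, adjusted p = 0.0346 by edgeR). In WT cells 4 of 19 were called higher and 2 lower in CD8 than in CD4 T cells, beside 12.2% and 11.6% of all genes. They ran from Asns at 1.01 to Cebpb at -1.01. In STAT3KO cells 2 were called higher, Asns at 1.00 and Gars at 0.43, beside 5.84% of all genes. With the block 9 were called higher and 4 lower in WT cells, beside 20.6% and 21.5% of all genes. In STAT3KO cells 3 were called higher and 4 lower, beside 14.4% and 15.3%.

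Ratios of RPKM within a library set the mitochondrial enzymes against their cytosolic partners without any scaling between libraries. The ratio of Shmt2 to Shmt1 was 2.82 and 2.44 (WT) against 3.58 and 3.40 (STAT3KO) in CD4 T cells, and 2.57 and 2.55 against 3.09 and 2.52 in CD8 T cells. It was above the WT values in both STAT3KO CD4 libraries, and the CD8 groups overlapped. The ratio of Mthfd2 to Mthfd1l, successive steps of the mitochondrial branch, was 1.59 and 2.03 (WT) against 1.23 and 1.56 (STAT3KO) in CD4 T cells, and 0.866 and 0.929 against 0.761 and 0.907 in CD8 T cells. All 4 CD4 libraries lay above all 4 CD8 libraries. The same held for Mthfd2 to Mthfd1, at 1.70 to 2.55 in the CD4 and 1.19 to 1.5 in the CD8 libraries. These ratios were computed after the values of the genes were known and are given as a description.

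**Figure D5:**
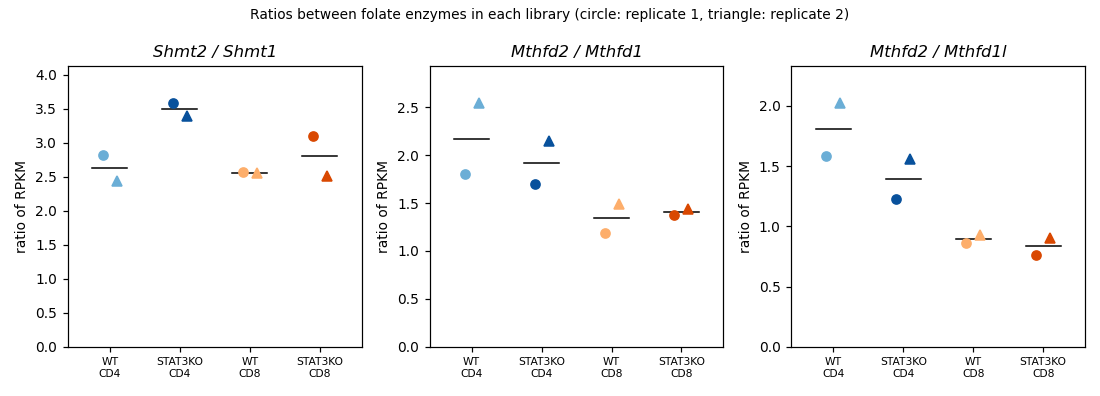
Ratio of RPKM between pairs of folate enzymes in each library, for Shmt2 to Shmt1, Mthfd2 to Mthfd1 and Mthfd2 to Mthfd1l, with the 4 groups on the x axis, circles for replicate 1, triangles for replicate 2 and a line at the mean. Mthfd2 exceeds Mthfd1l in the CD4 libraries (1.23 to 2.03) and is below it in the CD8 libraries (0.761 to 0.929).

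Over the 8 libraries, which share the difference between cell types, Shmt1 and Mthfd1 were the most alike of the members (Pearson r of log2 CPM 0.988), followed by Shmt2 and Mthfd1 (0.978). Mthfd2 was the least like the rest, with r of -0.46 with Tyms and -0.11 with Phgdh. Of 8749 other genes whose mean log2 CPM was 3 or more, those most like Tyms were Rcn1, Sephs1 and Tcf19 (r of 0.993 to 0.994), those most like Phgdh were Thy1, Mrpl15 and Dut (0.982 to 0.990), those most like Psat1 were Cd8b1, Lyar and Ran (0.989 to 0.990) and those most like Psph were Elp3, Ifngr1 and Ccdc32 (0.976 to 0.982). For Shmt2 they were Uqcrc1, Pa2g4 and Afg3l1 (0.990 to 0.994), for Mthfd2 Cct3, Pno1 and Cisd1 (0.975 to 0.979), and for Mthfd1l Itgax, Prf1 and Gas2 (0.989 to 0.994). For Shmt1 they were Slc35g1, Pmpca and Afg3l1 (0.981 to 0.987), and for Mthfd1 Afg3l1, Bckdk and Slc35g1 (0.986 to 0.992). So Afg3l1 stood among the nearest genes of 3 members. With 8 libraries in 4 groups such values describe a shared pattern of group levels.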

How the data were processed

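Messenger RNA of 8 libraries in 4 groups of 2 was sequenced as single-end reads. According to the study's methods, the authors aligned reads with STAR to the mouse genome mm10 and counted them over RefSeq genes with HTSeq, and they deposited 1 table of counts and 1 of RPKM for the same genes. RPKM were deposited as normalized to library size and exon length. Growth and treatment texts in the labels concern cultured adipogenic cells and were not used, and labels and methods name different library kits. Strand use in counting is not given in the sources used here.

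All counts were fitted with edgeR 4.0.16 (R 4.3.3) as deposited: filterByExpr with a count minimum of 10 (12428 genes, holding 99.96% to 99.97% of counts in each library), TMM factors (0.982 to 1.03), a quasi-likelihood fit over 4 groups, two-sided tests and Benjamini-Hochberg adjustment over all genes tested. A group of 2 is small, and an exact permutation test of 2 against 2 libraries cannot go below p = 0.333. P-values set a difference against the spread between the pooled libraries of a group. Without the block this spread includes what libraries of 1 replicate number share. Replicate pairs differed by far more than counting noise (chi-square per gene 24.1 to 69.5). The script was tested on simulated data. Alternatives used DESeq2 1.42.0 and limma 3.58.1.

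Libraries with the same replicate number deviated together in all 6 pairs of groups (r of 0.424 to 0.671 over 12428 genes), and their laboratory numbers in the labels are consecutive, so the numbers were taken to pair them and the fit with the number as a block is printed where it changes the call of a member or the count of a list. Promoters came from RefSeq (GRCm38.p6), and overlaps and copies from GENCODE M21. Named genes are the 9 members, Stat3, Myc, Atf4, Cd4, Cd8a and Cd8b1, in each list up to 2 called genes of highest and 2 of lowest fold change for STAT3 deficiency and 1 of each between cell types, and the 3 genes most like each member. Members and lists were chosen with earlier results of these data known. Values of some genes that this rule would name are not reported here.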

Additional observations from a re-analysis of the deposited data

Results flagged for a closer look

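Phgdh was the member whose STAT3KO and WT libraries lay in opposite orders in CD4 and CD8 T cells, though neither fold change was called by edgeR without the replicate block. Both STAT3KO CD4 libraries were above both WT CD4 libraries (log2 fold change 0.50), and both STAT3KO CD8 libraries were below both WT CD8 libraries (-0.28). The difference of -0.78 (SE 0.19, unadjusted p = 0.00421) was not called by edgeR over all genes (adjusted p = 0.291) and was called with the replicate block (adjusted p = 0.0321).

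Outside the members, Dck, deoxycytidine kinase of the salvage pathway, had the reverse orders, at -0.33 in CD4 and 0.33 in CD8 T cells, with a difference of 0.66 (SE 0.20, edgeR adjusted p = 0.371, and 0.0322 with the block). Aars, an alanyl-tRNA synthetase among the known targets of ATF4, was at 0.04 and -0.21, with a difference of -0.24 (SE 0.12, edgeR adjusted p = 0.706). Dck and Aars were named after their values were seen.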

How the results depend on the processing

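Single values of the 9 members in 5 comparisons were also taken from other tools, scalings and filters, the replicate block, and fits of the compared groups alone. In all, 377 kept their side of the threshold and their direction. Another 16 were brought past it, most of them by the block, and 3 were taken off it. The 3 were Shmt1 in CD4 T cells when those libraries were fitted alone (adjusted p = 0.0708 by edgeR) and Tyms between cell types in STAT3KO cells by limma-trend on log2(RPKM + 1) or log2(RPKM + 0.1) (0.0625 and 0.0604). No other scaling moved the median of all genes by more than 0.05. The cause of each shift below was not tested.

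With the replicate number as a block, edgeR called 4 members, 20 other pathway genes and 3747 genes in all for STAT3 deficiency in CD4 T cells (2, 8 and 1444 without it), 4, 12 and 2258 in CD8 T cells (0, 2 and 257), and 2, 5 and 403 for the difference between them (0, 0 and 0). Between cell types it called 8 members, 32 other pathway genes and 5232 genes in WT (7, 18 and 2960 without it) and 8, 25 and 3689 in STAT3KO cells (6, 11 and 1555). Of the members' calls the block changed those printed beside the results and no other. Other pathway genes are those of the 7 lists around the members, without ATF4 targets and proliferation markers. Tested were 10 of folate cycle and transport, 3 of glycine cleavage, 7 of methionine cycle and transsulfuration and 13 of purine synthesis. To these come 10 of deoxynucleotide synthesis, 8 of transport and 8 of use of serine and glycine. Of all genes the block called 30.1% in CD4 (11.6% without it) and 18.2% in CD8 T cells (2.07%), and 3.24% for the difference (0%). Between cell types it called 42.1% in WT (23.8%) and 29.7% in STAT3KO cells (12.5%).

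When the libraries of the compared groups were fitted alone, 1 member was called in CD4 T cells, 0 other pathway genes and 37 genes in CD8 T cells, and 1919 genes between cell types in WT cells. For STAT3 deficiency in CD8 T cells DESeq2 called 1 member, 4 other pathway genes and 885 genes, and the edgeR likelihood-ratio test 1, 5 and 815. For the difference DESeq2 called 2 other pathway genes and 190 genes and the likelihood-ratio test 1 and 137. Without a filter on low counts 454 genes were called in CD8 T cells and 44 for the difference. On log2(RPKM + 1) limma-trend called 1 other pathway gene in CD8 T cells and 13 genes for the difference.

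Leaving out 1 library, with the lone library of its group assumed to vary like the others, kept 180 values of members, took 23 off the threshold and turned the sign of 13, all uncalled. For STAT3 deficiency in CD4 T cells it left 1 member, 4 to 6 other pathway genes and 412 to 1116 genes, and in CD8 T cells 0 other pathway genes and 7 to 34 genes. Between cell types it left 10 to 15 other pathway genes and 1546 to 2297 genes in WT, and 1 to 2 members, 2 to 7 other pathway genes and 457 to 645 genes in STAT3KO cells. Signs turned for Psat1 (-0.024 to 0.10), Psph (-0.15 to 0.27) and Mthfd1l (-0.13 to 0.020) in CD4, Psph (-0.34 to 0.022) in CD8 T cells, Shmt1 (-0.070 to 0.18), Mthfd2 (-0.016 to 0.30) and Mthfd1 (-0.22 to 0.022) for the difference, and Mthfd2 between cell types in WT cells (-0.18 to 0.12).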
